A study of Mus musculus with 18 samples.

Results

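The genomic loci of the introduced reprogramming factors, Hnf4a, Foxa1, Foxa2 and Foxa3, were examined for peaks of chromatin immunoprecipitation sequencing (ChIP-seq). Members were all peaks of the 9 deposited peak lists that overlap, by at least 1 bp, a fixed mm9 window around each gene. The windows are chromosome 2 from 163310000 to 163420000 for Hnf4a, chromosome 12 from 58590000 to 58700000 for Foxa1, chromosome 2 from 147820000 to 147920000 for Foxa2, and chromosome 7 from 19570000 to 19640000 for Foxa3. They held 38 peaks of 60701 in all. The Hnf4a window held 19 of them, the Foxa2 window 9, the Foxa1 window 7 and the Foxa3 window 3.

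All libraries came from induced hepatocyte-like (iHep) cells, which are C57BL/6 mouse embryonic fibroblasts (embryos of 13.5 days post coitum) infected with Hnf4alpha and a Foxa protein. In 8 constructs, 1 terminal domain was exchanged between Foxa3 and Foxa1 or Foxa2. In Foxa1-N3, the N-terminal domain of Foxa1 was replaced by that of Foxa3; in Foxa1-C3, the C-terminal domain was; Foxa2-N3 and Foxa2-C3 are the same exchanges in Foxa2. Foxa3-N1 and Foxa3-N2 are Foxa3 carrying the N-terminal domain of Foxa1 or Foxa2, and Foxa3-C1 and Foxa3-C2 carry the C-terminal one. A Foxa3 antibody was used for Foxa1-N3, Foxa2-N3, Foxa3-C1 and Foxa3-C2, a Foxa1 antibody for Foxa1-C3 and Foxa3-N1, and a Foxa2 antibody for Foxa2-C3 and Foxa3-N2. A ninth library, titled 4a3_DA1, has labels that differ from its title: they name infection with Foxa1 and Hnf4alpha and an Hnf4alpha antibody, and it entered no comparison. With 1 ChIP library for each construct, values have no replicate. The labels give no clone, copy number or expression level of the vectors. Lists ran from 956 peaks in Foxa1-N3 to 16543 in Foxa3-N2. The depth of the libraries is unknown, since the files give peaks and not reads.

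Foxa proteins are forkhead transcription factors that can bind their sites in closed chromatin and that act early in liver development. Hnf4alpha, the product of Hnf4a, is a nuclear receptor that maintains hepatocyte gene expression. In liver these genes belong to a network in which the factors bind at each other's loci. Fibroblasts express little of them, so the vectors supply the proteins at the start of conversion. Vectors of this kind usually carry coding sequence without introns. Fragments of such a vector in a library therefore align to the exons of the endogenous gene, where they can look like a peak, whereas flanking sequence is absent from the vector.

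A forkhead match stood before 1 of the 7 annotated starts of these genes, that of Foxa1, which is near the share over all start sites. The 4 genes have 7 start sites in the RefSeq promoter table (GRCm38.p6), and the 250 bases before each were searched on both strands for the forkhead core word TGTTTAC and for its variants, namely TGTTTGC, then the word TATTTAC, and finally the word TATTTGC. The Foxa1 start alone held a match, and 11.9% of all 32851 start sites in the table held one. The stretch is shown because it is the sole forkhead word found before a start of these genes. The match is in capitals and reads TGTTTAC on the other strand.

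Foxa1, GRCm38.p6, chr12:57546235-57546264, minus strand: ttatactgctttGTAAACAaagtgagggcc

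It runs from -141 to -135 from the start site, counted backwards from the base just before the start. The Hnf4alpha words CAAAGTCCA and CAAAGGTCA were found before none of the 7 start sites, against 0.807% of all start sites. A match is a description of letters and not a bound site. These coordinates are on another build than the peaks, so the distance from any peak to the match was not determined.

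The peaks of the 8 Foxa lists in the windows, 37 in number, fell into 11 regions when overlapping peaks were merged, and these are lettered from low to high coordinate within each window. Of the 11 regions, 6 (54.5%) had a peak in 4 or more lists, against 21.6% of all 24999 regions. The other 5 regions were each found in 1 list. No region in the windows was found in all 8 lists, and 2.12% of all regions were. The 6 shared regions each included peaks made with the Foxa1, the Foxa2 and the Foxa3 antibody, as did 86.1% of all regions in 4 or more lists. The share rises with the number of lists, from 60.2% for 4 lists to 100% for 7, where it is fixed by the number of libraries per antibody.

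**Figure D1:**
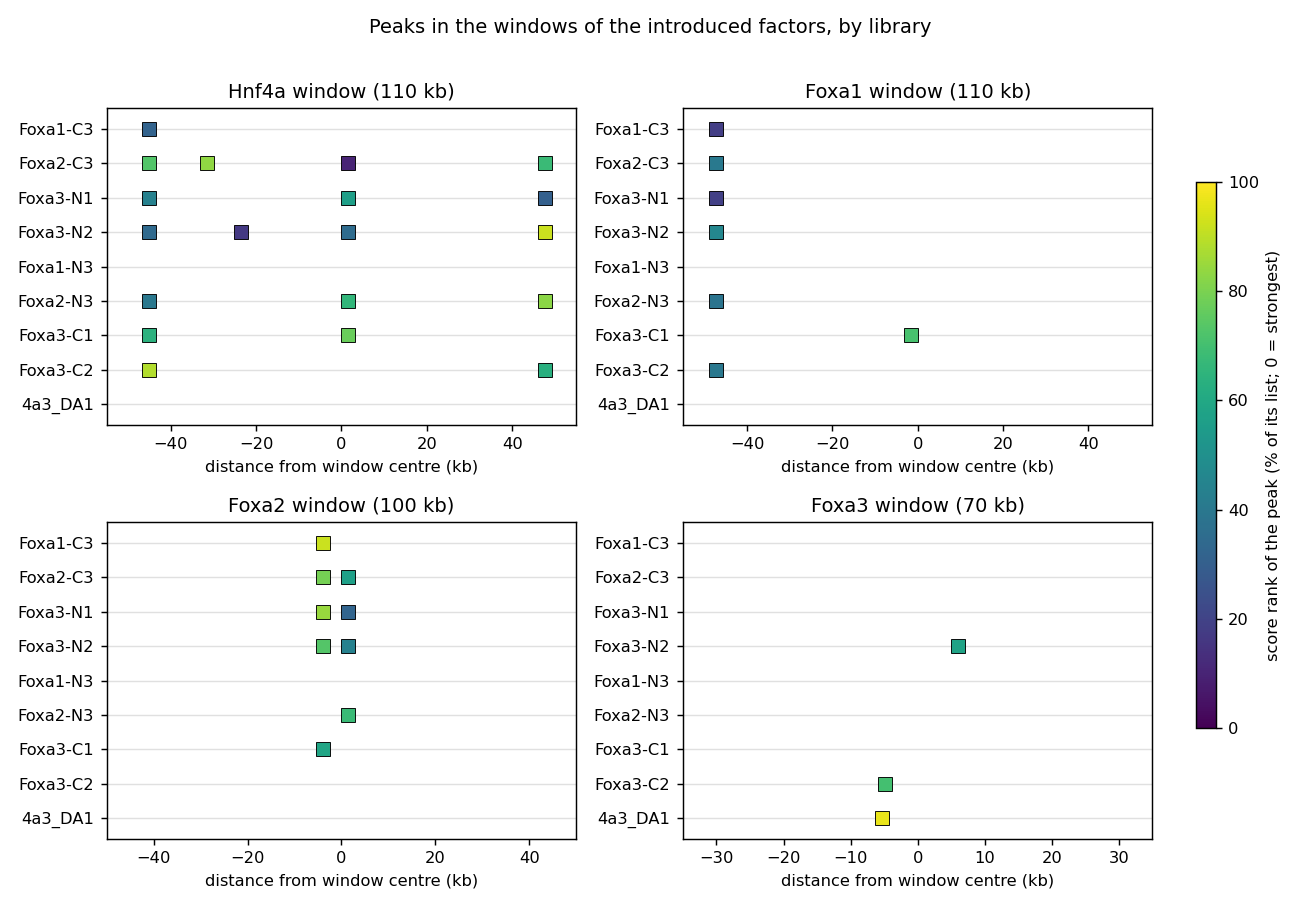
Peaks in the 4 windows (panels), by library (rows), at their distance from the window centre in kb; colour gives the score rank of the peak within its list in percent, with 0 the strongest. Peaks of different libraries line up at 3 positions in the Hnf4a window, 1 in the Foxa1 window and 2 in the Foxa2 window, and the Foxa3 window holds single peaks.

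Scores were in the middle of the lists. The deposited score of each peak was used as a rank, given as a percentage of the list, so that a low percentage is a strong peak. Over the 37 peaks the rank ran from 9.78 to 92.1% with a median of 58.1%. In total 16 peaks were stronger than the middle of their list, and 1 was in the strongest 10%. Foxa1-N3 had no peak in any window; its nearest peaks were 68.8 kb beyond the Hnf4a window, 172 kb beyond the Foxa1 window, 686 kb beyond the Foxa2 window and 6655 kb beyond the Foxa3 window. Its list was the shortest, and it was also absent from 90.6% of all regions found in 6 lists.

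Hnf4a, which encodes the nuclear receptor given to all cells, had the densest window. Its 19 Foxa-list peaks lay in 5 regions, and 1.94% of genome tiles of the same width held as many peaks. Foxa2-C3 and Foxa3-N2 had 4 peaks there, Foxa2-N3 and Foxa3-N1 had 3, Foxa3-C1 and Foxa3-C2 had 2, Foxa1-C3 had 1 and Foxa1-N3 had 0. The constructs with more peaks were in part those with longer lists: per 1000 peaks of the list, the highest values were 0.574 in Foxa2-N3 and 0.556 in Foxa3-C2, and Foxa3-N2 had 0.242.

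Region a of the Hnf4a window (163319440 to 163320331) was found in 7 lists, all but Foxa1-N3. Of the 1037 regions of the series found in 7 lists, 882 (85.1%) lacked the same list. The rank was 31.4% in Foxa1-C3, 34.0% in Foxa3-N2, 40.0% in Foxa2-N3, 43.6% in Foxa3-N1, 64.0% in Foxa3-C1, 72.8% in Foxa2-C3 and, lowest of all, 88.3% in Foxa3-C2. Midpoints of the 7 peaks lay within 158 bp of each other. The first base was less stable than the last: starts spread over 257 bp and ends over 164 bp, with the lowest starts in Foxa3-N2, Foxa3-C1 and Foxa3-C2.

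These peaks were wide. Width was 739 bp in Foxa3-N2, 729 bp in Foxa2-C3, 703 bp in Foxa3-C2, 675 bp in Foxa3-C1, 631 bp in Foxa1-C3, 521 bp in Foxa3-N1 and 483 bp in Foxa2-N3. All 7 exceeded the median width of their own list, by ratios from 1.19 to 1.95, and the wide peaks of Foxa2-C3, Foxa3-C1 and Foxa3-C2 were not strong ones. Wide peaks are usually strong peaks, so the width was also read against peaks of like rank. Among peaks of the same list within 5 percentage points of rank, 0.580% were as wide in Foxa2-C3, 1.41% in Foxa3-C2, 2.68% in Foxa3-C1, 3.19% in Foxa3-N2, 3.97% in Foxa1-C3, 10.3% in Foxa3-N1 and 19.5% in Foxa2-N3. The other 30 peaks in the windows had width ratios from 0.703 to 1.29, with a median of 0.921, and 12 of them exceeded the median of their list. For these 30, the share of peaks of like rank that were as wide ran from 7.51 to 96.4%. The highest share was that of region c of the Hnf4a window. This region was singled out after its widths were seen.

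**Figure D2:**
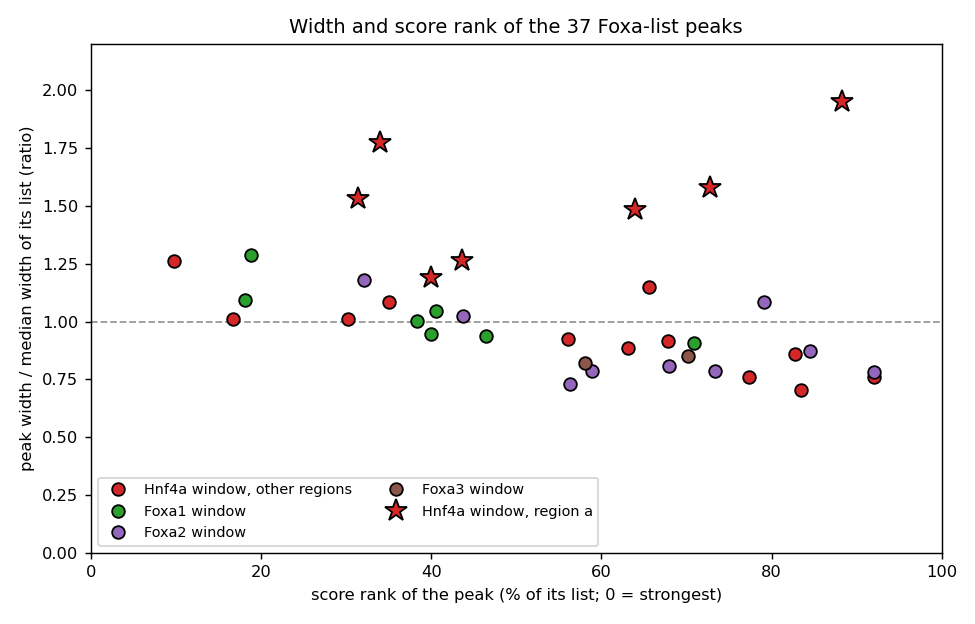
Width of each of the 37 Foxa-list peaks as a ratio to the median width of its list (y axis) against its score rank in percent (x axis, 0 the strongest), coloured by window. Stars mark region a of the Hnf4a window, which lies between 1.19 and 1.95; the dashed line marks the list median.

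Region d of the Hnf4a window (163366221 to 163366812) held the strongest peak of all members. That peak, in Foxa2-C3, had rank 1341 of 13715 (9.78%). The rank was 35.1% in Foxa3-N2, 56.0% in Foxa3-N1, 65.6% in Foxa2-N3 and 77.3% in Foxa3-C1. Foxa1-N3, Foxa1-C3 and Foxa3-C2 had no peak, a combination shared by 284 of the 1239 regions in 5 lists (22.9%). Midpoints of the 5 peaks lay within 73.5 bp.

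Region e (163412440 to 163412932) was also found in 5 lists, with another order of strength. It was strongest in Foxa3-N1 (30.3%), followed by Foxa3-C2 (63.1%), Foxa2-C3 (67.8%), Foxa2-N3 (82.7%) and Foxa3-N2 (92.1%). Foxa3-C1, which held region d, lacked region e, and Foxa3-C2, which held region e, lacked region d. The set of lists without region e (Foxa1-N3, Foxa1-C3 and Foxa3-C1) was shared by 47 of the 1239 regions in 5 lists (3.79%). The 5 midpoints lay within 106.5 bp, and widths from 317 to 424 bp were 0.760 to 1.01 times the list median.

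The remaining regions of the Hnf4a window were found in 1 list each. Region c (163341254 to 163341675) was a Foxa3-N2 peak of rank 2768 (16.7%), the best of that list in the window. Of the Foxa3-N2 peaks at that rank or better, 79 (2.85%) were found in no other list, against 35.3% of the whole list. Region b (163333269 to 163333593) was a Foxa2-C3 peak of rank 83.5% and a width of 325 bp, 0.703 times the median of its list. Regions b and c were 7660 bp apart. The strong single-list peak is the exception among the members, since the other single-list peaks ranked from 58.1 to 83.5%.

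Foxa1 encodes 1 of the partner proteins of Foxa3 in these constructs. Its window held 7 Foxa-list peaks, and 13.9% of genome tiles of the same width held as many. Region a of its window (58597383 to 58597944) was found in 6 lists. The rank was 18.2% in Foxa1-C3, 18.8% in Foxa3-N1, 38.4% in Foxa2-N3, 40.0% in Foxa3-C2, 40.6% in Foxa2-C3 and 46.5% in Foxa3-N2. All 6 peaks were thus stronger than the middle of their lists, and the Foxa1-antibody libraries held the best ranks. With 2 such libraries, and the antibody tied to the N-terminal domain, antibody and protein cannot be told apart there. Midpoints lay within 88 bp.

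Foxa1-N3 and Foxa3-C1 lacked region a of the Foxa1 window. That pair was the missing pair in 51 of the 978 regions found in 6 lists (5.21%). Both constructs carry the C-terminal domain of Foxa1 and the N-terminal domain of Foxa3, but Foxa1-N3 was lacking from 90.6% of all regions in 6 lists. Foxa3-C1 instead had the sole other peak in the window, region b (58643147 to 58643559), of rank 70.9% and a width of 413 bp. Region b lay 45202 bp from region a, and 12.3% of Foxa3-C1 peaks at its rank or better were found in no other list, against 18.1% of the whole list.

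**Figure D3:**
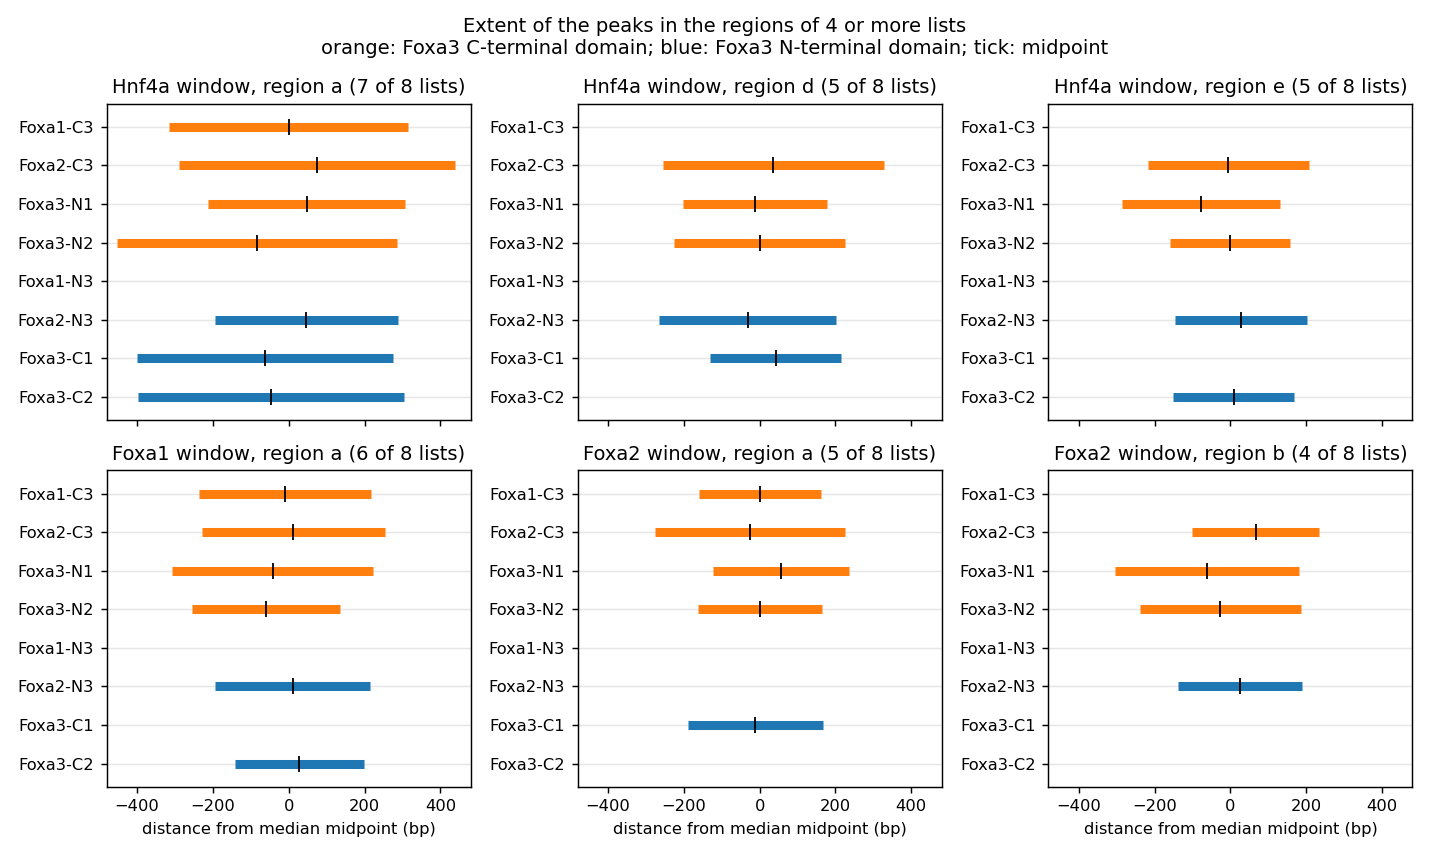
Extent of each peak (bar) and its midpoint (tick) in the 6 regions found in 4 or more lists, by construct, as distance in bp from the median midpoint; orange bars are constructs with the Foxa3 C-terminal domain and blue bars those with the Foxa3 N-terminal domain. Midpoints differ by at most 158 bp within a region, and rows without a bar are lists without a peak.

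Foxa2 encodes the other partner protein. Its window held 9 Foxa-list peaks in 2 regions, 4762 bp apart, and 8.66% of genome tiles of the same width held as many peaks. Region a (147865814 to 147866325) was found in 5 lists, at ranks of 58.9% in Foxa3-C1, 73.3% in Foxa3-N2, 84.5% in Foxa3-N1, 79.1% in Foxa2-C3 and 92.0% in Foxa1-C3. All of these were weaker than the middle of the list. Region b (147871088 to 147871628) was found in 4 lists, at ranks of 32.1% in Foxa3-N1, 43.7% in Foxa3-N2, 56.3% in Foxa2-C3 and 67.9% in Foxa2-N3. In the 3 lists that held both, region b was the stronger. The midpoints lay within 81 bp in region a and within 128.5 bp in region b. Foxa1-N3 and Foxa3-C2 had no peak in the window, and the nearest Foxa3-C2 peak lay 61.8 kb beyond it.

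Foxa3, of which every construct carries some coding sequence, had the emptiest window. Region a (19600023 to 19600329) was a Foxa3-C2 peak of rank 70.2% and a width of 307 bp. Region b (19610814 to 19611155) was a Foxa3-N2 peak of rank 58.1% and a width of 342 bp. The other 6 lists had no peak. Of genome tiles of this width, 24.3% held 2 or more peaks and 33.1% held any. Of the Foxa3-C2 peaks at the rank of region a or better, 31 (1.23%) were found in no other list, against 3.03% of the whole list. For Foxa3-N2 at region b the share was 19.7%, against 35.3%.

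The sole 4a3_DA1 peak in the 4 windows was also at Foxa3. It ran from 19599553 to 19599730, was 178 bp wide against a median of 115 bp in its list, and ranked 676 of 698 (96.8%). It met no Foxa-list peak and ended 292 bp before region a. Its nearest peaks to the other windows were 848 kb beyond that of Hnf4a, 1996 kb beyond that of Foxa1 and 4642 kb beyond that of Foxa2.

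No exon annotation of mm9 was used here, so peaks were not assigned to exons, and vector sequence was not separated from flanking binding. The lists were instead sorted by which cells were given which gene. Region a of the Foxa1 window was found in 4 of 4 lists from cells given no Foxa1 sequence (the constructs of Foxa2 and Foxa3) and in 2 of 4 from cells given some. Region a of the Foxa2 window was found in 3 of 4 lists from cells given no Foxa2 sequence (Foxa1-C3, Foxa3-N1 and Foxa3-C1) and in 2 of 4 from cells given some. Region b of the Foxa2 window was found in 1 of 4 and 3 of 4. Its strongest peak, in Foxa3-N1, came from cells given no Foxa2 sequence. Each of these 3 regions thus had a peak where the labels give no vector copy of the gene, for region b of the Foxa2 window in 1 list.

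Region b of the Foxa1 window was found in 1 list, and a single peak must fall on 1 side or the other, so the comparison cannot inform there. It had a peak in 0 of 4 lists from cells given no Foxa1 sequence and in 1 of 4 from cells given some. That list was Foxa3-C1, whose vector carries the C-terminal domain of Foxa1. Foxa1-N3 carries that domain as well, but its list was the shortest and had no peak in any window. For the 7 regions of the other windows the comparison cannot be made at all. All cells were given Hnf4alpha and all constructs hold a Foxa3 domain, so the regions of the Hnf4a and Foxa3 windows came from cells given the gene in every case. Region a of the Foxa3 window was found in Foxa3-C2, whose vector carries the N-terminal and DNA-binding domains of Foxa3. The part of vector sequence was not tested for any region of the windows, and the input libraries were not analysed here.

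The design also asks how the exchanged domains relate to the number of peaks at each locus. Constructs with the Foxa3 C-terminal domain had 1.75 ± 0.50 peaks in the Foxa2 window, against 0.50 ± 0.58 with the Foxa3 N-terminal domain (SD, n = 4 constructs each). The two-sided p of the exact permutation test was 0.0857, and 0.973 after adjustment. Numbers were 2, 2, 2 and 1 against 0, 0, 1 and 1, so the groups met at 1 peak, that of Foxa1-C3. Without Foxa1-C3 they no longer met (difference 1.5 in place of 1.25, exact permutation p = 0.0286, adjusted p = 0.359). Their separation was set by leaving out the construct at which they met, and this p is the smallest that such a split allows. Leaving out any other construct gave an exact permutation p from 0.0857 to 0.171. Without Foxa1-C3, 7.95% of tiles had an unadjusted p under 0.05. In the Hnf4a window the values were 3 ± 1.41 and 1.75 ± 1.26 (exact p = 0.343, adjusted p = 0.974). That difference of 1.25 ran from 0.667 without Foxa1-N3 to 1.92 without Foxa1-C3.

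List length went with the terminal layout. In 4 pairs that share DNA-binding domain and partner, the longer list each time was that of the Foxa3 C-terminal side: 4807 against 956, 7625 against 7533, 13715 against 5230 and 16543 against 3594 peaks. That side also had more peaks in 4 of 4 pairs in both the Hnf4a and the Foxa2 window (exact sign-flip p = 0.125 for each, the smallest that 4 pairs allow), as it had in 5.44% of tiles, against 0.0377% with fewer in 4 of 4. Per 1000 peaks of the list that side was higher in 3 of 4 pairs in the Foxa2 window and in 2 of 4 in the Hnf4a window, where the difference of the group means turned to -0.0652. The windows of Foxa1 (1 ± 0 and 0.75 ± 0.50) and Foxa3 (0.25 ± 0.50 in both) gave an exact p of 1. The antibody follows the N-terminal domain, so layout and antibody cannot be told apart.

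**Figure D4:**
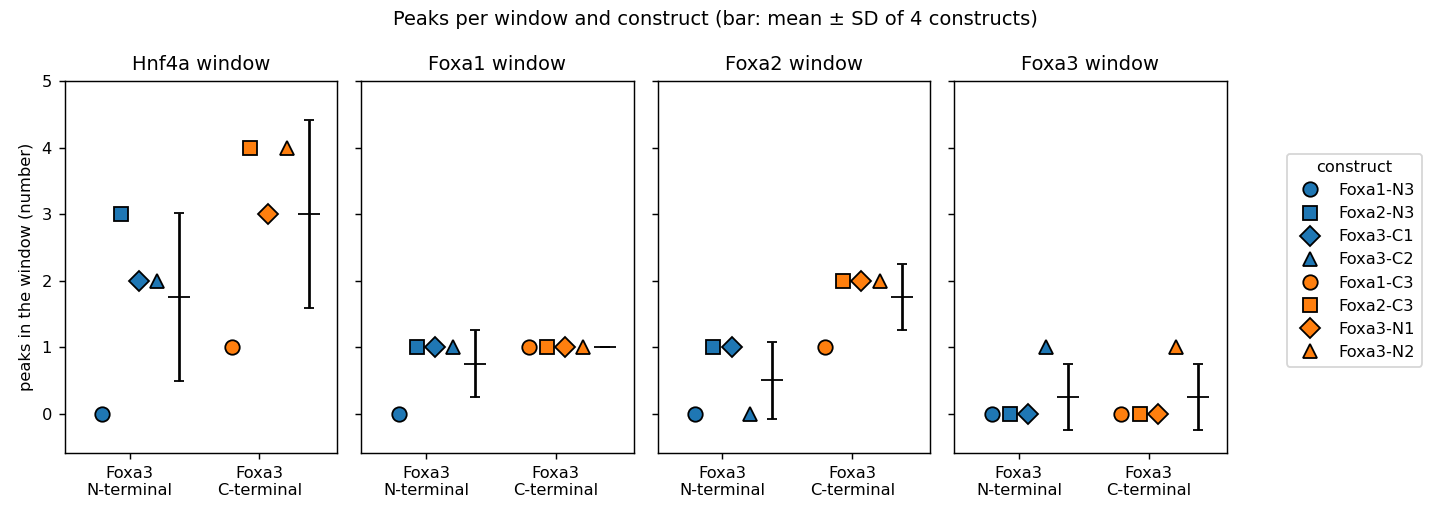
Number of peaks (y axis) in each window (panels) for the 8 constructs, split by the terminal domain taken from Foxa3; horizontal marks and bars are the mean and SD of 4 constructs. The groups meet or overlap in every window, most nearly apart at Foxa2, where 1.75 stands against 0.50.

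By partner protein and by DNA-binding domain, no window had an exact permutation p under 0.05, and 0.0286 is the smallest that 4 against 4 allow. Constructs were not paired here, so the spread within a group also holds differences in terminal layout and list length. In the Hnf4a window, constructs made with Foxa2 had 3.25 ± 0.96 peaks and those made with Foxa1 had 1.5 ± 1.29 (SD over 4 constructs; exact permutation p = 0.143, and 1 after adjustment). The Foxa1 window gave 1 ± 0 with Foxa2 as partner and 0.75 ± 0.50 with Foxa1 (exact p = 1), and the Foxa2 window 1.25 ± 0.96 and 1 ± 0.82 (exact p = 1). Both Foxa3-window peaks came from constructs with Foxa2 as partner and with the Foxa3 DNA-binding domain, 0.50 ± 0.58 against 0 in either comparison (exact p = 0.429). By DNA-binding domain, the Hnf4a window held 2.75 ± 0.96 peaks with that of Foxa3 and 2 ± 1.83 with that of Foxa1 or Foxa2 (exact p = 0.629); without Foxa1-N3 that difference of 0.75 was 0.0833. The values were 1 ± 0 and 0.75 ± 0.50 in the Foxa1 window, and 1.25 ± 0.96 and 1 ± 0.82 in the Foxa2 window (exact p = 1 for both).

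The 4 windows thus gave 0 groups without overlap in 12 comparisons. Among 10612 genome tiles of 100 kb with a peak in any Foxa list, the groups did not overlap in 2.53% with the Foxa3 C-terminal domain higher and in 0.0188% with it lower. The shares were 0.132% with the Foxa3 DNA-binding domain higher, 0.123% with Foxa2 as partner higher, and 0.0 in the reverse directions of both. Adjustment was over all tiles and windows, and no tile passed an adjusted p of 0.05 in any comparison (0.0%). That outcome was nearly fixed in advance, since most tiles would have to reach the smallest possible p for any to pass. The unadjusted p was under 0.05 in 2.54% of tiles by terminal layout, 0.132% by DNA-binding domain and 0.123% by partner, against 0 of the 4 windows in each. The smallest p that 4 constructs against 4 allow is 0.0286, and no window reached it with all 8 constructs. Without replicate libraries, p-values measure the spread between constructs.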

How the data were processed

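The authors deposited 1 peak list for each of 9 ChIP libraries; the files have no header, and hold chromosome, start, end, name and score. What the authors' score measures is not given in any source at hand. BWA 0.6.2, MACS2 2.1.0, bedtools 2.16.2 and build mm9 are named in the submitters' processing notes, with no settings. It served as a rank or a threshold within a list. The 9 inputs were not analysed here.

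Starts were made to count from 1. The members, windows and lists were chosen with earlier results of these data known. Overlapping peaks (1 bp) of the 8 Foxa lists were merged into regions. Peak numbers were compared by exact permutation over 70 splits of 8 constructs, with Benjamini-Hochberg adjustment over 10612 tiles of 100 kb and the 4 windows. Regions were to be printed in full if in 4 or more lists, if they held a library's best peak in the window, or if 4a3_DA1 met them; the rest were also printed after seeing them. The gene table at hand is GRCm38, so exons, and a fixed list of other liver transcription factor genes, were not analysed. Window counts equalled those of bedtools 2.31.1 in all 36 pairs of list and window, and the test was tested on simulated data. Alternatives were a score above 19.2 (the pooled median), the 956 strongest peaks of each list, peaks per 1000, windows widened by 50 kb, midpoints, merging within 1 kb, leaving out each construct and, added later, pairing constructs. Python 3.11.15, numpy 2.4.6, pandas 2.3.3 and matplotlib 3.10.9 were used.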

Additional observations from a re-analysis of the deposited data

Results flagged for a closer look

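Some constructs stood apart from the other 3 of their group by peak number, a check that flags about 1 in 20 groups by chance and that flags more readily where small whole numbers tie. In the Foxa1 window, Foxa1-N3 had 0 peaks where the others of its group had 1, in each of the 3 ways of grouping. In the Foxa2 window, Foxa1-C3 had 1 peak where the other constructs with the Foxa3 C-terminal domain had 2. In the Foxa3 window, Foxa3-N2 and Foxa3-C2 had 1 peak each where the other 3 constructs of their terminal layout had 0.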

How the results depend on the processing

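Peak numbers were small and the lists unequal in length, and no read depth is known. Over 12 comparisons and 13 alternatives each, 143 of 156 values belong to the 11 comparisons with a difference other than 0; of these 117 kept the direction, 17 became 0 and 9 reversed. No adjusted p fell below 0.359. With the smallest possible p and so many tiles, an adjusted p under 0.05 could hardly be reached. With the 956 strongest peaks, 0 of 19 peaks were left in the Hnf4a window, 0 of 9 in the Foxa2 window and 0 of 2 in the Foxa3 window. The 8 differences that became 0 there could take no other value. Among them were those by terminal layout in the Foxa2 and Hnf4a windows (1.25 each), on which this setting cannot inform. With scores above the pooled median, the DNA-binding domain difference in the Foxa1 window was -0.25 in place of 0.25. It was also -0.25 with the 956 strongest peaks, as was that by partner, where 1 of 7 peaks was left in that window. Per 1000 peaks, the differences by terminal layout were -0.0652 (Hnf4a) and -0.0324 (Foxa1), and those in the Foxa2 window were -0.00728 by DNA-binding domain and -0.0363 by partner. Leaving out 1 construct gave -0.0833 to 0.667 for both of the latter, negative only without Foxa1-N3. In the Hnf4a window it gave 0.667 to 1.92 by terminal layout, 0.0833 to 1.42 by DNA-binding domain and 1.25 to 2.25 by partner. By terminal layout in the Foxa3 window, where the difference was 0, it gave -0.25 to 0.25. The 11 regions became 6 with scores above the pooled median and 1 (region a of the Foxa1 window) with the 956 strongest peaks, since fewer peaks enter. The 4a3_DA1 peak count became 0 above the median score of its list. The labels give no replicate numbers to pair libraries by; pairing constructs by DNA-binding domain and partner, chosen after seeing the data, gave an exact sign-flip p of 0.125 by terminal layout in the Hnf4a and Foxa2 windows and 1 in the others.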
